A study of Mus musculus with 12 samples.

Results

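Imprinted genes that regulate growth were followed across young and old hematopoietic stem cells sorted by the cytokine receptor IL27RA. The genes were chosen by name. Of 10 names listed, Zac1 is a synonym of Plagl1 in RefSeq, and the other 9 (H19, Igf2, Plagl1, Dlk1, Meg3, Grb10, Peg3, Ndn and Mest) were all found among the 20457 genes of the deposited table. H19 and Plagl1 had been seen to be lower in old cells when the list was drawn up, so age differences of the listed genes are given as descriptions with no test. The samples were stem cells from bone marrow of C57BL/6 mice aged 2 months (young) or 28 months (old), each sorted as IL27RA− or IL27RA+, which gave 4 groups of 3 libraries of 50 cells each. The labels name no transgene, treatment or mutation, and do not say which gates defined a stem cell or whether each library came from its own animal. P-values therefore measure only the spread between these libraries, which may be technical.

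An imprinted gene is expressed mainly from the copy inherited from the mother or mainly from the copy inherited from the father, because methylation laid down in the germ line differs between the copies. Many imprinted genes act on growth, and as a rule genes expressed from the father's copy promote it while genes expressed from the mother's copy restrain it. Several are linked to quiescence of long-lived stem cells: in the blood system the H19-Igf2 and Dlk1-Meg3 regions are known for their part in keeping stem cells out of division. The libraries do not tell the parental copies apart, so the values below are sums over both.

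The noncoding RNAs H19 and Meg3 host microRNAs, whose mature forms are shown because the host transcripts carry the age differences described below. Mature microRNAs were not measured in these libraries. Sequences are from RefSeq on GRCm38.p6, written 5′ to 3′, with the seed (bases 2 to 8) in capitals. The miR-675 arms lie on chromosome 7, minus strand, at chr7:142577112-142577133 (5p) and chr7:142577078-142577099 (3p), within an exon in 3 of 7 annotated H19 transcripts. The miR-770 arms lie on chromosome 12, plus strand, at chr12:109563710-109563731 (5p) and chr12:109563744-109563765 (3p), within an exon in 1 of 11 Meg3 transcripts. No 2 of the 4 seeds are the same.
miR-675-5p: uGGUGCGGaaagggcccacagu
miR-675-3p: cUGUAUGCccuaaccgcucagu
miR-770-5p: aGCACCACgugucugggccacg
miR-770-3p: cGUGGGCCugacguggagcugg

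The 250 bases before the start site were read from RefSeq for 8 of the 9 genes, in 15 windows, since some genes have several start sites. H19 was the other gene. The windows of Plagl1 and Meg3 are shown because these genes stood lower in old libraries. They were searched on both strands for TGCCGC, the core of the motif bound by ZFP57, the zinc finger protein that protects imprints in the early embryo. A match (in capitals) was present in 4 of the 15 windows, belonging to Plagl1, Meg3 and Mest, whose pair of overlapping windows share the same matches. Of all 32851 RefSeq windows of this length, 8.68% held the motif. The Plagl1 window (chr10:13090582-13090831, plus strand) had 19 CpG dinucleotides and 70.4% G and C. The first Meg3 window (chr12:109540746-109540995, plus strand) had 10 CpG dinucleotides and 52.4% G and C, against medians of 6 and 52.4% over all windows. A match describes these letters and is not a measured binding site.
Plagl1: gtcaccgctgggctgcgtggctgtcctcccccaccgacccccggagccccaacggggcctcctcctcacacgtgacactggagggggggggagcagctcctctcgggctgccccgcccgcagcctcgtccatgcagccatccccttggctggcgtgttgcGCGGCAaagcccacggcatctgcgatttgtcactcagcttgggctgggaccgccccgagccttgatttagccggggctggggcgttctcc
Meg3: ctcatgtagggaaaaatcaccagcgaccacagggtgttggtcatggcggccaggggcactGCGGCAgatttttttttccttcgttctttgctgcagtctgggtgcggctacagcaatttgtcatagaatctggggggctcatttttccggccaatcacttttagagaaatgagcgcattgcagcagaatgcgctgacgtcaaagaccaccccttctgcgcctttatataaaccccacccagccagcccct

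Libraries held 11669083 to 24153167 reads in genes, and 3 reads in a library, taken as the limit of detection, were worth 1.93 to 3.77 normalized counts. Reads from amplified cDNA are not independent molecules, so limits and read intervals cover counting error only. Young IL27RA− replicate 2 and old IL27RA− replicate 1 lay farthest from their groups (array weights 0.434 and 0.542), and a source label of the latter calls it young while its title and age say old. Il27ra mRNA overlapped between the sorted fractions: young cells had 1231 ± 457 normalized counts in the IL27RA− and 1088 ± 185 in the IL27RA+ fraction (SD, n = 3), and old cells 1379 ± 282 and 1294 ± 182. Each of 14 stem cell markers passed the filter and had a read in every library. In total 41 of 47 measured imprinted genes outside the list and all 9 listed genes had at least 10 normalized counts in 3 or more libraries, the filter used for the tests. For H19, Plagl1 and Peg3 this rests on a few libraries, because they were above the limit of detection in 4, 4 and 3 of the 12.

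Per kilobase of exon, the 9 genes covered a wide range of levels. Grb10 had the highest median over the 12 libraries, at 194 normalized counts per kilobase (range 122 to 293), followed by Ndn at 155 (101 to 262) and Meg3 at 63.4 (24.1 to 276). Igf2, Mest and Dlk1 were lower, with medians of 9.32, 7.34 and 6.25. H19, Peg3 and Plagl1 had medians of 0.196, 0.0694 and 0.0601, below the limit of detection. Neighbours in this order overlapped in range. The order of medians hides the largest spread, since H19 reached 470 normalized counts per kilobase in young IL27RA− replicate 2, above every library of Grb10.

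**Figure D1:**
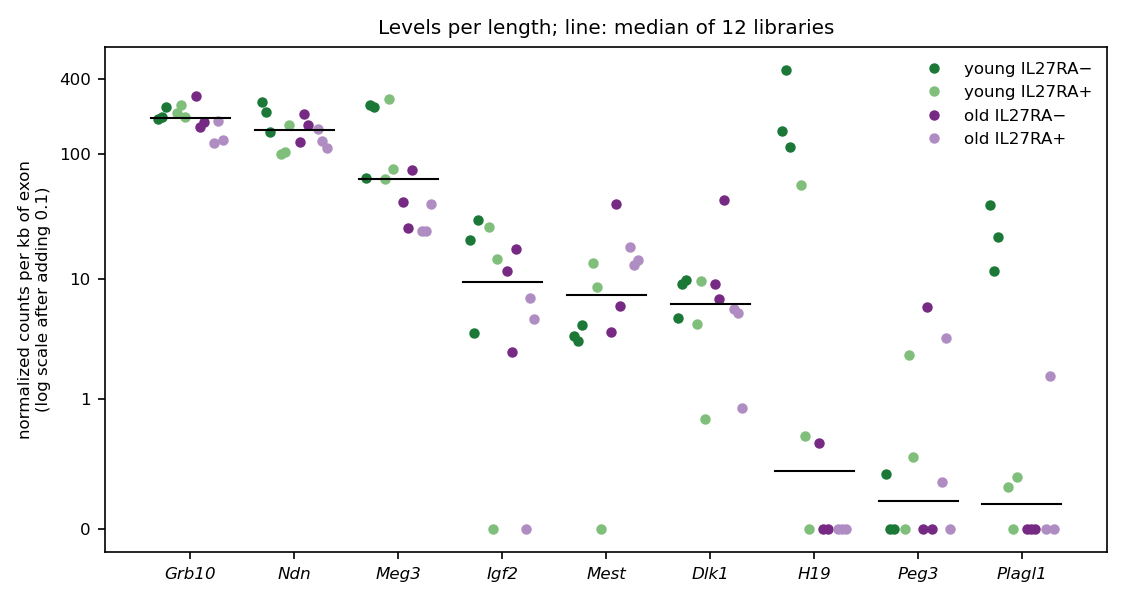
Levels of the 9 genes in normalized counts per kilobase of exon (y axis, log scale after adding 0.1), by gene (x axis, ordered by the median of 12 libraries, shown as a line). Each point is 1 library, coloured by group. H19 and Plagl1 are high in the 3 young IL27RA− libraries and mostly at 0 in old ones.

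H19 (ENSMUSG00000000031, chromosome 7), a maternally expressed noncoding RNA that restrains growth, was well above the limit of detection in young IL27RA− libraries and almost absent from old ones. Young IL27RA− libraries held 376, 1156 and 280.0 normalized counts (replicates 1 to 3). Young IL27RA+ libraries held 140.1, 1.14 and 0, old IL27RA− libraries 0.963, 0 and 0, and old IL27RA+ libraries 0, 0 and 0. The 3 young IL27RA− libraries were above all others, young IL27RA+ replicate 1 was the only other library above the limit of detection, and no old library was. In reads, the groups summed to 2522, 150, 1 and 0 in the same order. After adjustment for depth, young IL27RA− exceeded old IL27RA− libraries by a ratio of 1677, with an exact 95% interval of 301 to 66281 that reflects the single read in the old group. Against old IL27RA+ libraries, with no read, young IL27RA− cells were at least 198-fold higher and young IL27RA+ cells at least 15.4-fold higher, taking 3 reads per library as the floor. The latter bound rests on young IL27RA+ replicate 1, since the other 2 libraries of that group were under the floor. On the log2(normalized count + 1) scale, old minus young averaged over fractions was −5.69 ± 1.18 (SE of the limma fit, n = 6 against 6), and it ranged from −6.37 to −4.59 when each library was left out in turn. Without both libraries that lay far from their groups it was −5.55. In libraries of 50 cells, fewer cells with the RNA and less RNA per cell cannot be told apart.

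Among young libraries H19 was also lower in the IL27RA+ fraction, by a depth-adjusted ratio of 11.0 in reads (exact 95% interval 9.29 to 13, counting error only) and by a difference of −6.21 ± 1.68 on the log2 scale. Of the 150 reads in young IL27RA+ libraries, 149 came from replicate 1, and without it the ratio was 1006 (180.3 to 39731, on 1 read). No young IL27RA+ library reached the young IL27RA− range, which held for H19 and Plagl1, 2 of the 9 genes, beside 4.73% of all genes tested in this direction. The young IL27RA− libraries that gave the age difference enter this one too, so it is a description. The fraction test in old cells was run and did not pass for H19, but it is not read as a test, because all but 1 of the 6 old libraries had no H19 read.

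Meg3 (chromosome 12), a maternally expressed noncoding RNA that restrains cell division, was abundant in every library and lower in old ones. Young IL27RA− libraries held 1153, 4501 and 4284 normalized counts and young IL27RA+ libraries 1142, 4994 and 1368. Old IL27RA− libraries held 751, 466 and 1346 and old IL27RA+ libraries 441, 436 and 714. Among the young libraries 3 held 4284 or more and 3 held 1368 or less, and the ages overlapped because old IL27RA− replicate 3 exceeded both the lowest young IL27RA− and the lowest young IL27RA+ library. Old minus young was −1.85 ± 0.60 in IL27RA− and −1.94 ± 0.60 in IL27RA+ cells (SE), and −1.90 ± 0.42 on average, with −2.22 to −1.56 when each library was left out and −1.71 without both libraries that lay far from their groups. The IL27RA+ minus IL27RA− difference averaged over ages was −0.55 (95% interval −1.45 to 0.35, adjusted p = 0.816, limma). Meg3 shares exon bases with 3 other genes of its strand and with Gm26906 on the opposite strand, and reads from amplified cDNA of this kind do not keep strand, so reads of these genes cannot be told apart. The same limit applies to H19, which shares exon bases with Mir675 on its strand and with Gm27483 and Gm27786 on the opposite strand. It also applies to Plagl1, which shares them with Gm27741 on the opposite strand.

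**Figure D2:**
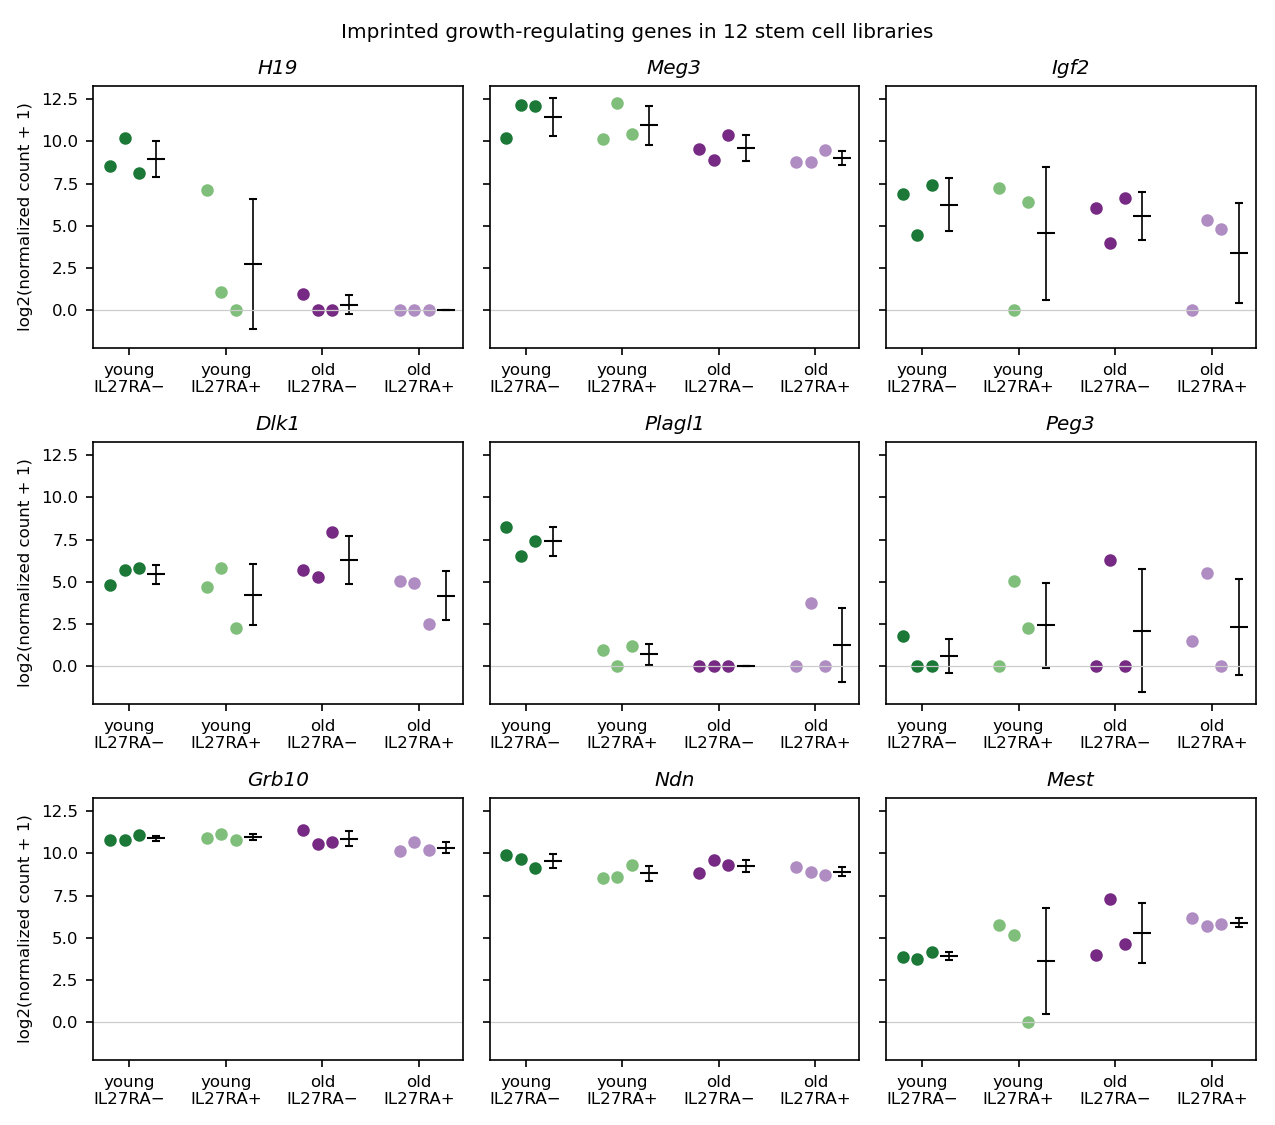
Expression of the 9 genes in 12 libraries, as log2(normalized count + 1) (y axis), by group (x axis). Points are replicates 1 to 3 from left to right, and the bar beside them is the mean ± SD (n = 3). H19 and Plagl1 separate the young IL27RA− libraries from the other 3 groups, Meg3 is shifted down in old libraries, and Grb10 and Ndn are present in all 12 libraries.

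The paternally expressed ligands, Igf2 and Dlk1, had age differences smaller than their standard errors. Igf2, the growth factor next to H19, stood at 117, 20.8 and 168 normalized counts in young IL27RA−, 149, 0 and 82.8 in young IL27RA+, 66.4, 14.5 and 99.2 in old IL27RA−, and 0, 40.2 and 27.0 in old IL27RA+ libraries. Libraries within a group spread more widely than the groups did. Old minus young was −0.92 ± 1.34 (SE), against −5.69 for H19 in the same region. IL27RA+ minus IL27RA− was −1.94 averaged over ages (95% interval −4.79 to 0.92, adjusted p = 0.783, limma). Igf2 shares exon bases with Igf2os on the opposite strand and with Gm49394.

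Dlk1, a transmembrane relative of the Notch ligands encoded next to Meg3, stood at 27.1, 51.5 and 54.7 normalized counts in young IL27RA− and 24.4, 54.5 and 3.76 in young IL27RA+ libraries. In old cells it stood at 51.0, 38.4 and 242 in the IL27RA− and 32.3, 29.7 and 4.69 in the IL27RA+ fraction. Old minus young was 0.40 ± 0.90 (SE), opposite in sign to Meg3. All 3 old IL27RA+ libraries were below all 3 old IL27RA− libraries, which was so for 1 of the 9 genes and, in this direction, for 5.39% of all 14723 genes tested. The difference of −2.14 (95% interval −4.86 to 0.58) did not pass the test (adjusted p = 1, limma).

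Plagl1 (ENSMUSG00000019817, chromosome 10), a paternally expressed zinc finger transcription factor known to arrest the cell cycle and to activate other imprinted genes, was above the limit of detection in the 3 young IL27RA− libraries and in 1 old IL27RA+ library. The young IL27RA− libraries held 303, 90.2 and 169 normalized counts. Young IL27RA+ libraries held 0.940, 0 and 1.25, old IL27RA− libraries 0, 0 and 0, and old IL27RA+ libraries 0, 12.5 and 0. The reads summed to 769, 2, 0 and 13 in the same order. Young IL27RA− cells were at least 57.5-fold higher than old IL27RA− cells, with 3 reads per library as the floor, and exceeded young IL27RA+ cells by a depth-adjusted ratio of 251 (exact 95% interval 69.1 to 2072, on 2 reads in the lower group). Against old IL27RA+ cells the ratio was 41.9 (24.4 to 79.0), where all 13 reads came from replicate 2.

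The age difference of Plagl1 thus lay in the IL27RA− fraction, at −7.39 ± 1.39 on the log2 scale (SE), against 0.54 ± 1.39 in the IL27RA+ fraction, where both ages were near the limit of detection. Averaged over fractions it was −3.42 ± 0.98 (−4.05 to −3.11 when each library was left out, −3.64 without both libraries that lay far from their groups). IL27RA+ minus IL27RA− in young cells was −6.68 ± 1.39, a description because it shares the young IL27RA− libraries. The fraction test in old cells was run and did not pass for Plagl1, but it is not read as a test, since all Plagl1 reads of old cells came from 1 library. In the IL27RA− age comparison, H19 and Plagl1 were the 2 of 9 genes whose old libraries were all lower than all young ones, beside 6.74% of all genes tested, and the rule that chose them used these values. Phactr2, the neighbour of Plagl1, had an age difference of −0.27 ± 0.28 (SE).

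Peg3, a paternally expressed zinc finger protein of growth and maternal behaviour, was above the limit of detection in 3 libraries, each a replicate 2. Its values were 2.39, 0 and 0 normalized counts in young IL27RA−, 0, 31.8 and 3.76 in young IL27RA+, 0, 77.8 and 0 in old IL27RA−, and 1.85, 44.1 and 0 in old IL27RA+ libraries. The values of 2.39 and 3.76 stood for 3 reads each. Its other libraries had 3 reads or fewer. The age difference was 0.71 ± 1.42 (SE), and IL27RA+ minus IL27RA− was 1.04 (95% interval −2.00 to 4.07, adjusted p = 0.916, limma).

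Grb10, an adaptor that dampens insulin and IGF receptor signalling, had the smallest standard error of the age difference among the 9 genes (0.19, around −0.31). It stood at 1747, 1788 and 2161 normalized counts in young IL27RA−, 1951, 2240 and 1782 in young IL27RA+, 2666, 1504 and 1635 in old IL27RA−, and 1111, 1658 and 1186 in old IL27RA+ libraries. The old IL27RA+ libraries included the lowest values, and all 3 were below all young IL27RA+ libraries. Old minus young was −0.01 ± 0.27 in IL27RA− and −0.61 ± 0.27 in IL27RA+ cells (SE). Grb10 and Meg3 were the 2 of 9 genes with no overlap in that age comparison, where 7.8% of all genes tested were lower in old libraries without overlap. IL27RA+ minus IL27RA− in old cells was −0.53 (95% interval −1.10 to 0.05, adjusted p = 0.964, limma) and in young cells 0.07 (−0.51 to 0.64, adjusted p = 0.971).

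Ndn, which encodes the growth suppressor necdin, known for holding stem cells in quiescence, was present in all libraries. It stood at 966, 804 and 554 normalized counts in young IL27RA−, 371, 385 and 636 in young IL27RA+, 461, 771 and 627 in old IL27RA−, and 589, 466 and 412 in old IL27RA+ libraries. The values of all groups overlapped. Age moved its mean by −0.11 ± 0.27 (SE). IL27RA+ minus IL27RA− averaged over ages was −0.54 (95% interval −1.11 to 0.04), with the smallest adjusted p of the 7 genes tested in that comparison, 0.663 (limma).

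Mest, a paternally expressed enzyme-like protein of embryonic growth, stood at 13.5, 12.2 and 16.7 normalized counts in young IL27RA− and 52.6, 34.1 and 0 in young IL27RA+ libraries. In old cells it stood at 14.4, 157 and 23.9 in the IL27RA− and 71.2, 50.8 and 56.2 in the IL27RA+ fraction. Libraries were close together in the young IL27RA− and old IL27RA+ groups, while each of the other two groups held a library far from the rest. The old minus young difference was 1.83 ± 1.05 (SE), the largest positive difference of the 9 genes, and the ages overlapped. IL27RA+ minus IL27RA− was 0.16 (95% interval −2.09 to 2.41, adjusted p = 0.988, limma). Copg2 overlaps Mest on the opposite strand, and its own age difference was 0.48 ± 0.44.

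Set side by side, old minus young was negative for 6 of the 9 genes and positive for 3, with a median of −0.31 against 0.06 over all genes tested. None of the 9 had all 6 old libraries below or above all 6 young ones. Of all genes tested, 0.672% had the 6 old below the 6 young libraries, and 1.88% were called for age at an adjusted p below 0.05 (277 of 14723, limma). These values describe genes that were listed with their age difference in view.

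**Figure D3:**
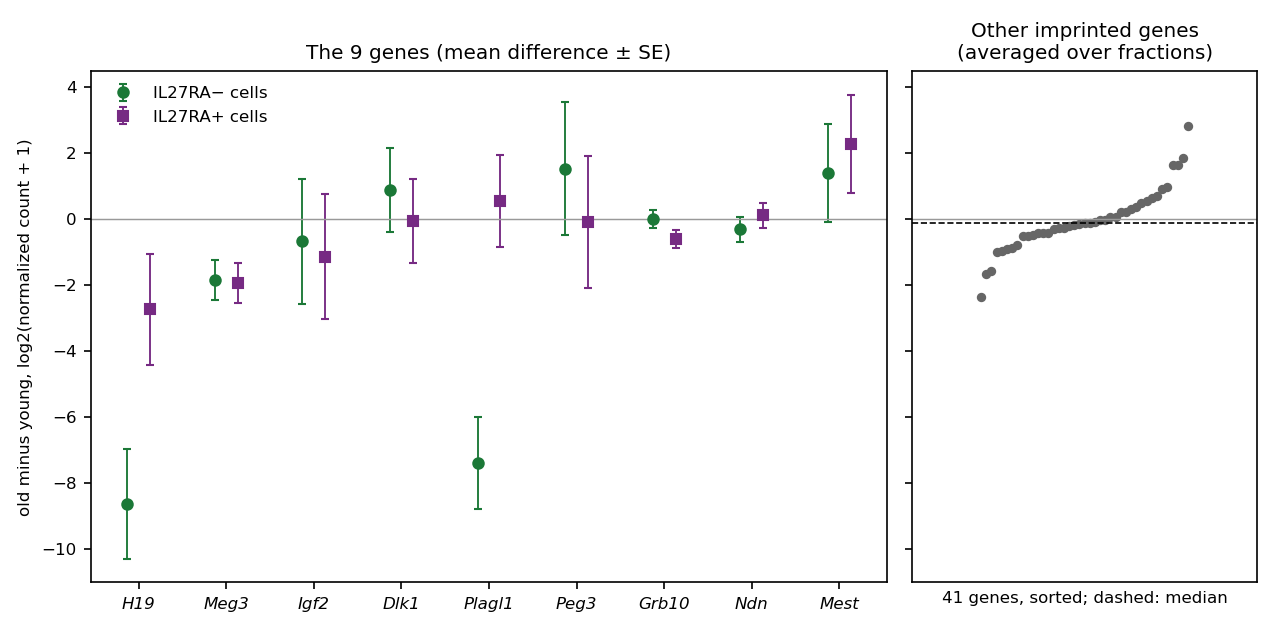
Old minus young on the log2(normalized count + 1) scale (y axis). Left, the 9 genes in each sorted fraction as difference ± SE. Right, 41 other imprinted genes averaged over fractions, sorted, with their median of −0.14 as a dashed line. The values of H19 and Plagl1 are those that chose them, and the other imprinted genes run from −2.37 to 2.81.

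Tests of whether the sorted fractions differ are reported for the 7 genes other than H19 and Plagl1. None passed: 0 of 7 averaged over ages, beside 0.19% of all genes tested, 0 of 7 in young cells, beside 0.0204%, and 0 of 7 in old cells, beside 0.0272% (limma). None of these tests had an unadjusted p below 0.05, and limma voom on the recovered reads called 0 as well. For 5 of the 7 the averaged difference was negative. The age by fraction interaction called 0 of 7, beside 0.0% of all genes tested, with a smallest adjusted p of 0.941. The intervals of the averaged difference were narrow for Grb10 (−0.64 to 0.18) and wide for Igf2, Mest and Peg3, which leave room for large differences in either direction. That of Dlk1 (−3.59 to 0.25) leaves room for a much lower level in the IL27RA+ fraction.

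**Figure D4:**
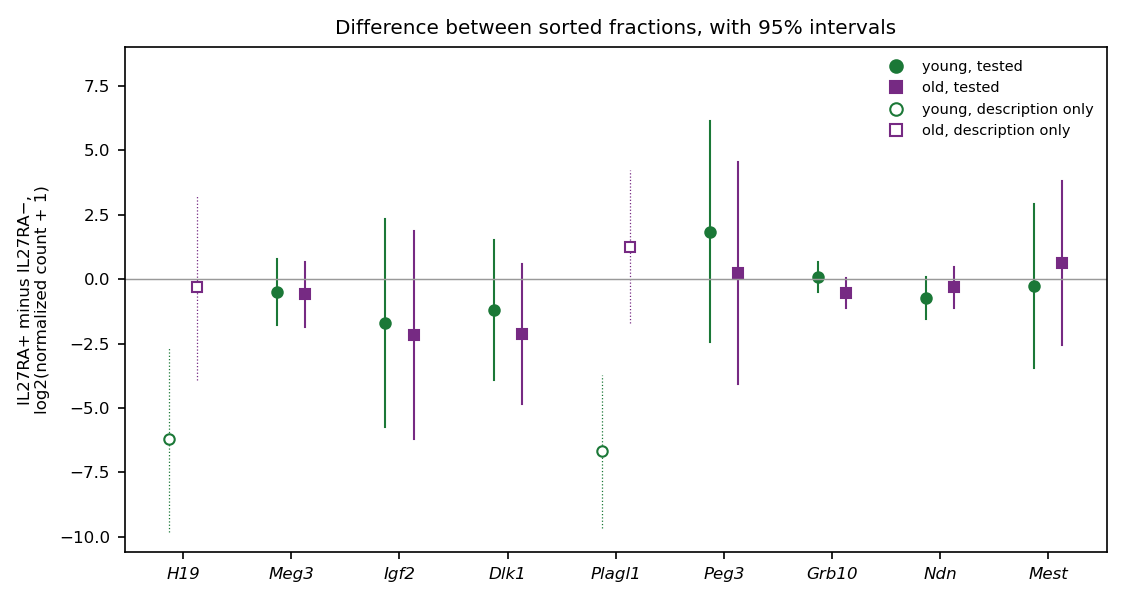
IL27RA+ minus IL27RA− on the log2(normalized count + 1) scale (y axis) for the 9 genes (x axis), in young and old cells, with 95% intervals of the limma fit. Open symbols with dotted intervals are descriptions. All intervals of the tested differences include 0.

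Across the 12 libraries the 9 genes did not move as a block. The median Pearson r over 36 pairs was 0.11 (range −0.43 to 0.81), and 4 pairs exceeded 0.5. H19 and Plagl1 had the highest r (0.81), followed by H19 and Meg3 (r = 0.58), Meg3 and Grb10 (r = 0.53) and Plagl1 and Ndn (r = 0.52). By Spearman rho, H19 and Grb10 were highest (0.634, r = 0.32), close to H19 and Plagl1 (0.629), and Meg3 and Mest stood at −0.65. The libraries share groups and depth differs among them, so these are descriptions. H19 and Plagl1 had both been seen to be lower in old cells, so their r uses the values that singled them out. Over all genes tested, the patterns most like that of H19 were those of Afap1l1 (r = 0.90), 6330406I15Rik (r = 0.88) and Igf1 (r = 0.87). Those most like Plagl1 were Gm20232 (r = 0.97), Ifrd1 (r = 0.93) and Bmp8a (r = 0.92), and Bmp8a had 81.2 to 375 normalized counts in young IL27RA− libraries and 0 in the other 9.

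Other imprinted genes lying near the listed genes on the chromosome were read, and none was called for age, beside 1.88% of all genes tested. Whether they share a control region with the listed gene was not examined. Ins2 was not in the table, and 10 neighbours of H19 and Igf2 had age differences from −2.37 to 0.69. Of these, Cdkn1c, the maternally expressed inhibitor of cyclin-dependent kinases, had 3335 ± 1546 normalized counts in the IL27RA− and 1888 ± 430 in the IL27RA+ fraction of young cells (SD, n = 3), and 1353 ± 1221 and 1672 ± 559 in old cells, a difference of −0.89 ± 0.39 (SE) that did not pass (adjusted p = 0.297, limma). The potassium channel gene Kcnq1, at or under 12.8 normalized counts on average in each group, differed by −2.37 ± 1.16 (adjusted p = 0.355, limma), and the tetraspanin gene Cd81 by −0.04 ± 0.15. Next to Dlk1 and Meg3, the noncoding RNAs Rian and Mirg differed by −1.01 ± 0.87 and −0.18 ± 1.19, and Rtl1 was below the filter. Near Ndn, 5 neighbours had age differences from −0.31 (Mkrn3) to 0.90 ± 0.28 (Atp10a), with Peg12 at 0.53 ± 0.39, Snrpn at 0.35 ± 0.40 and Ube3a at −0.09 ± 0.21. Ddc, next to Grb10, differed by 1.62 ± 1.28.

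Of 61 further imprinted genes listed, 47 were in the table and 41 passed the filter. None of the 41 was called for age, beside 1.88% of all genes tested (limma, adjusted p below 0.05). Their differences were negative in 25 and positive in 16, with a median of −0.14. Of the 41, 7 had an unadjusted p below 0.05, and limma voom called 0. The share of all genes with an unadjusted p below 0.05 is not given, here or for the lists below. The smallest adjusted p values were those of the actin-binding protein gene Ppp1r9a (−0.97 ± 0.27, adjusted p = 0.0862), the phospholipid flippase gene Atp10a (0.90 ± 0.28, 0.124) and the creatine synthesis enzyme gene Gatm (0.98 ± 0.33, 0.168), all by limma. Between fractions 0 of 41 were called averaged over ages, in young cells and in old cells. Over all genes tested the shares called were 0.19%, 0.0204% and 0.0272%. At an unadjusted p below 0.05 there were 2, 3 and 3 of the 41 (limma). The cation transporter gene Slc22a3 came nearest averaged over ages (2.76 ± 0.84, adjusted p = 0.319, limma), followed by Inpp5f (1.05 ± 0.46, 0.595) and Asb4 (−2.17 ± 1.05, 0.651). In old cells Ddc, Gnas and Mkrn3 came first (adjusted p = 0.870, 0.871 and 0.881, limma), and the interaction called 0 of 41, with 0 at an unadjusted p below 0.05.

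The IGF pathway, in which Igf2 and Grb10 act, was followed through 17 measured genes, 11 of which passed the filter (Igf2r is also among the imprinted genes above). Igf1, the growth factor that shares its receptor with Igf2, fell with age and was the 1 gene of 11 called (limma). Of all genes tested, 1.88% were called in either direction and 0.482% as lower. Young cells had 815 ± 218 normalized counts of Igf1 in the IL27RA− and 344 ± 112 in the IL27RA+ fraction (SD, n = 3), and old cells 85.7 ± 19.1 and 93.0 ± 33.4. The difference was −2.56 ± 0.40 (SE, adjusted p = 0.00336, limma). It ranged from −2.68 to −2.39 over 20 alternatives, with adjusted p from 0.00234 to 0.0137. The age difference was negative in 10 of the 11 genes (median −1.13, against 0.06 over all genes tested), 5 had an unadjusted p below 0.05, and limma voom called 2. Between fractions 0 of 11 were called averaged over ages, in young cells and in old cells, beside 0.19%, 0.0204% and 0.0272% of all genes tested. At an unadjusted p below 0.05 there were 2, 4 and 0 of the 11 (limma). The receptor gene Igf1r had a difference of −0.95 ± 0.35 in young cells (adjusted p = 0.488, limma), the smallest p there.

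Among 13 genes past the filter that maintain imprints or DNA methylation, 1 was called for age, beside 1.88% of all genes tested, and 1 between old fractions, beside 0.0272%. Dnmt3a, a de novo DNA methyltransferase, was lower in old libraries, with 2033 ± 333 and 1913 ± 168 normalized counts in the IL27RA− and IL27RA+ fractions of young cells (SD, n = 3) and 1141 ± 202 and 1287 ± 46.3 in those of old cells. Its difference of −0.70 ± 0.17 had an adjusted p of 0.0478 (limma), just under the threshold. The call was lost in 15 of 20 alternatives, whose adjusted p ranged from 0.0284 to 0.115, and leaving out any library other than young IL27RA− replicate 1 ended it. Uhrf1, which brings the maintenance methyltransferase to newly copied DNA and is also a cell cycle gene, was higher in old IL27RA+ libraries, at 787 ± 23.1 normalized counts against 14.6 ± 24.4 in old IL27RA− ones. The difference was 7.46 ± 1.08 (SE, adjusted p = 0.0289, limma). Over 21 alternatives the adjusted p ranged from 0.000108 to 0.323, and the call was lost in 10. It was lost with the replicate block (0.0753), by limma voom (0.323) and with only the compared groups (0.136). It was also lost without old IL27RA− replicate 1 or 2, without young IL27RA+ replicate 1 or 2, and without any of the old IL27RA+ libraries, where adjusted p was 0.0505, 0.0870, 0.0803, 0.0723, 0.307, 0.173 and 0.193. Limma voom called 0 in this list in either comparison. Averaged over ages 0 of 13 were called, beside 0.19% of all genes tested, Uhrf1 being nearest (adjusted p = 0.0529, limma).

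Markers of other marrow cells were read in the same libraries because H19, Igf2, Dlk1 and Meg3 are also expressed outside the blood lineage. Of 17 stroma markers, 11 were in the table. Their summed level was 1085 to 2011 normalized counts in young IL27RA−, 2507 to 2910 in young IL27RA+, 1130 to 3296 in old IL27RA− and 1448 to 1987 in old IL27RA+ libraries. Most of each sum was Runx2, with 895 to 1731 normalized counts in young IL27RA− libraries, so the sum says little about stroma. Cxcl12, Lepr, Sparc and Col3a1 had no read in any young IL27RA− library. Col1a2, Col1a1 and Kitl reached their highest value in that group, where H19 and Plagl1 were also high. Col1a2 stood at 14.3 to 368 normalized counts there, against 0.940 to 22.6 in young IL27RA+, 0 to 128 in old IL27RA− and 68.4 to 198 in old IL27RA+ libraries. Col1a1 stood at 0 to 190 there and at most at 35.2 elsewhere, and Kitl at 0 to 101 there and at most at 60.3 elsewhere. Runx2, Spp1, Fn1 and Pdgfrb peaked in other groups. Spp1 stood at most at 36.6 in young IL27RA− and 435 in young IL27RA+ libraries, and Fn1 at 37.2 and 114. Pdgfrb stood at most at 29.5 in young IL27RA− and 273 in old IL27RA− libraries. The summed level of 7 endothelium markers was 5165 to 5647, 3794 to 5587, 7863 to 8327 and 3774 to 4511 in the same order of groups, and that of 14 macrophage markers 13371 to 15309, 16915 to 25936, 11197 to 15127 and 15598 to 25308. Most of each endothelium sum was Tie1, Emcn and Cldn5. Lyz2 was the largest single part of each macrophage sum, from 10054 in an old IL27RA− to 16109 in a young IL27RA+ library. These sums therefore say little about the other markers. For age, 0 of 9 stroma markers past the filter, 2 of 7 endothelium markers (Cldn5 higher and Emcn lower in old libraries) and 1 of 13 macrophage markers (Axl, lower) were called by limma, beside 1.88% of all genes tested. Between fractions averaged over ages, 1 of 9 stroma (Spp1), 0 of 7 endothelium and 4 of 13 macrophage markers (Vcam1, C1qb, C1qc and Hmox1) were called, all higher in IL27RA+ libraries, beside 0.19% of all genes tested. Limma voom called 0 in each of these 3 lists in this comparison. All 13 macrophage markers were higher in IL27RA+ libraries (median 3.24, against 0.05 over all genes tested), 10 with an unadjusted p below 0.05 (limma). Of the others, 8 of 9 stroma and 2 of 7 endothelium markers were higher. The part of these markers in the results on the imprinted genes was not tested.

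The summed level of 6 B and plasma cell markers was 5239 to 378353 normalized counts in old IL27RA− libraries, with the highest value in replicate 1, and 4418 to 14521 in the other groups. Most of that highest value was Igkc, at 312300, with Igj (Jchain) at 60227, against at most 248 and 20.1 in the other groups. Old IL27RA− replicate 1 is also the library with a source label that calls it young. None of the 6 markers was called for age or between fractions averaged over ages (unadjusted p below 0.05 in 0 and 1, limma). Of all genes tested, 1.88% and 0.19% were called in these 2 comparisons, the shares beside the next 2 lists too. For 11 erythroid markers the summed level was 26448 to 37330 in young IL27RA−, 32681 to 36541 in young IL27RA+, 31514 to 43078 in old IL27RA− and 45768 to 52608 in old IL27RA+ libraries, with 0 of 10 called in both comparisons (2 and 2 at an unadjusted p below 0.05, limma). Most of each sum was Car2, at 26003 to 36484 in young IL27RA− and 44567 to 50835 in old IL27RA+ libraries. The erythroid sum therefore says little about the other markers. Averaged over ages, all 10 erythroid markers past the filter were higher in IL27RA+ libraries (median 1.51, against 0.05 over all genes tested). For 14 stem cell markers the summed level was 84654 to 98739, 77826 to 83000, 91837 to 107506 and 74060 to 84468 in the same order of groups, with 0 of 14 called (3 and 4 at an unadjusted p below 0.05, limma). Averaged over ages, 13 of these 14 were lower and 1 higher in IL27RA+ libraries (median −0.20, against 0.05 over all genes tested). Cell cycle genes summed to 16807 to 24493, 11445 to 27069, 6272 to 10214 and 23484 to 34562 in the same order. Between fractions averaged over ages, the differences of all 28 were positive (median 2.74, against 0.05 over all genes tested). Of these, 17 had an unadjusted p below 0.05 and 2 were called (Ncaph and Birc5, limma), beside 0.19% of all genes tested. In young cells 21 were positive and 7 negative (median 0.81, against 0.04). Of these, 4 had an unadjusted p below 0.05 and 0 were called (limma), beside 0.0204% of all genes tested. In old cells all 28 were positive (median 3.87, against 0.02). There 22 had an unadjusted p below 0.05 and 2 were called (Ncaph and Uhrf1, limma), beside 0.0272% of all genes tested. The age by fraction interaction was positive for all 28 (median 2.33, against 0.01), with 12 at an unadjusted p below 0.05 and 0 called (limma), beside 0.0% of all genes tested. Limma voom called 0 in each of these comparisons. For age, 18 of 28 were negative (median −0.40) and 5 had an unadjusted p below 0.05 (limma). Beside 1.88% of all genes tested, 1 was called, Ncaph, a condensin subunit. Its means were 191 and 0.419 normalized counts in young and old IL27RA− cells and 343 and 486 in young and old IL27RA+ cells, so the means moved in opposite directions in the fractions that the call averages. The part of cell cycle genes in the results on the imprinted genes was not tested.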

How the data were processed

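RNA was measured in 12 libraries of 50 sorted cells by Smart-Seq2, which amplifies whole cDNA, counts no molecular identifiers and does not keep strand. Tools named in the submitters' processing notes, without their roles, are DESeq2, HTSeq, TopHat2 2.1.1 and FastQC 0.11.5. The genome build they used was not given in sources used here. The deposited table holds log2 values, which from their steps are log2(reads over a size factor, with 1 added). Undoing this gave whole reads for 100% of values (within 0.001 reads). Of 20473 lines, 1 damaged line (Mtbp) and 15 repeats were dropped, and 21 names turned into dates were restored.

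Normalized counts are the values taken off the log2 scale, less the added 1. Limma 3.58.1 with a mean-variance trend (R 4.3.3) was fitted to the log2 values of all 12 libraries, 1 mean per group, for the 14723 genes with at least 10 normalized counts in 3 or more libraries, with Benjamini-Hochberg adjustment over all of them and a threshold of 0.05. The scale understates changes of low genes. Exon lengths and neighbours came from the GENCODE mouse annotation, and sequences from RefSeq. Python 3.11.15 with pandas 2.3.3 and numpy 2.4.6 did the rest.

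The listed genes, the other lists and the tests were chosen with earlier results of these data known. Age differences of the listed genes carry no p, nor do the fraction differences and the interaction of H19 and Plagl1, which share the young IL27RA− libraries or, in old cells, rest on almost no reads. Genes named are every listed gene, in other lists those called or else the 3 with the smallest p, and the 3 most correlated with H19 and with Plagl1. Alternatives were another filter, pseudocount or scaling, limma voom on recovered reads, array weights, a replicate block, fewer groups, and leaving out libraries. The fit was tested on simulated data in which only genes with a read in all 12 libraries were changed. That test does not cover genes such as H19, Plagl1 and Peg3, which lack reads in some libraries.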

Additional observations from a re-analysis of the deposited data

How the results depend on the processing

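The direction of the H19, Plagl1 and Meg3 age differences held under every alternative that gave a value, and a pseudocount of 10 reduced the first to −3.49 and the second to −1.93, as a larger pseudocount compresses low values by construction. No tested fraction difference of the 7 genes other than H19 and Plagl1 passed under any alternative. Over the alternatives the age difference changed sign for Dlk1 (−0.10 to 0.81), Ndn (−0.22 to 0.02) and Peg3 (−0.34 to 1.54), and that of Igf2 ranged from −2.05 to −0.07. Fraction differences changed sign for Mest (averaged −0.37 to 1.07, young −1.34 to 1.53, old −0.07 to 1.61), Peg3 in old cells (−1.35 to 2.33), and Igf2 (−3.05 to 0.57) and Grb10 (−0.02 to 0.17) in young cells. A filter of 6 libraries left H19, Plagl1 and Peg3 without a value. Same-numbered libraries deviated together with correlations of −0.054 to 0.107 (18 pairs), and differently numbered ones with −0.068 to 0.071 (36 pairs). Both ranges include pairs of a young with an old library. Within an age, correlations were 0.0038 to 0.107 for same-numbered IL27RA− and IL27RA+ libraries, all positive. For differently numbered ones they were −0.068 to 0.038. Whether the numbers pair libraries within an age was thus not settled. With the replicate block, 319 genes were called for age (277 without it), 20 between fractions averaged over ages (28), 0 in young (3) and 2 in old cells (4), and 0 for the interaction. For the averaged fraction comparison, 14 were called with no filter, 6 by voom, 47 with array weights and 18 without the pair of libraries that lay apart. In young cells, 8 were called with no filter, 6 with a pseudocount of 10 and 0 by voom, with array weights or with only the compared groups. In old cells, a pseudocount of 10 gave 10, voom 0, array weights 86, leaving out that pair 13 and only the compared groups 33. The cause of these shifts was not tested. Leaving out each library gave 140 to 434 for age, the highest without young IL27RA− replicate 1 and the lowest without old IL27RA+ replicate 2, and 6 to 96 between fractions averaged over ages, again highest without young IL27RA− replicate 1. It gave 0 to 50 in young cells, 1 to 25 in old cells and 0 to 5 for the interaction. Dnmt3a kept its direction but not its call, as did Uhrf1, and Igf1 kept both. With 3 libraries a group and H19 or Plagl1 at or near 0 in most, depth limits what can be said below about 2 to 4 normalized counts.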
